A study of Homo sapiens with 2 samples.

Results

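Ribosomal, vault, signal recognition particle (SRP) and ribozyme RNAs were measured by 25 of the 75149 probes on a microarray of THP-1 cells, a human monocytic leukaemia cell line. The probes were chosen by the class label in their names. The label rRNA belonged to 17 probes, vault_RNA to 5, SRpRNA to 1 and ribozyme to 2. The experiment held 1 array of control cells (Con) and 1 array of LPS-stimulated cells (LPS), where LPS is lipopolysaccharide from the outer membrane of Gram-negative bacteria. The sample records give 48 h of treatment and, in the treatment protocol and not in the label, DMSO for the control. The paper calls the same cells untreated, and neither source gives the LPS dose. Cells of both groups were grown in the same medium with serum and β-mercaptoethanol, and no gene was edited or silenced. THP-1 cells are a tumour line and not primary monocytes. Slide and scan were shared by the arrays, whereas array position and condition cannot be told apart. With a single array per group there were no replicates, and no p-value was computed.

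These RNAs have no coding role and most carry no poly(A) tail. Ribosomal RNA forms the core and the catalytic centre of the ribosome, and cells make it in the nucleolus from a long precursor by RNA polymerase I, apart from a short species made by RNA polymerase III and a separate pair encoded in the mitochondrial genome. Vault RNAs are short RNA polymerase III transcripts, some of which lie inside the vault, a barrel-shaped particle of the major vault protein, and they are also known to bind the autophagy receptor sequestosome. The SRP RNA is the scaffold of the particle that takes ribosomes making secreted proteins to the endoplasmic reticulum. Ribozymes are RNAs that catalyse a reaction, such as the RNA subunit of RNase P, which trims transfer RNA precursors. In bulk RNA of this kind, fewer cells holding an RNA and less of it per cell cannot be told apart. Each array was scaled to its own signals, so differences below are relative to the other probes.

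RNA was copied with oligo(dT) primers together with random primers before labelling with Cy3, so that transcripts without a poly(A) tail could be labelled too. The files give each probe an identifier, a class label, a serial number and a last number, as in rRNA_9_954, and they give neither its sequence nor its gene. The last number is not explained. For 2 of the 25 probes it equals the length in bases of a RefSeq gene of the same class, namely 954 for RNR1 and 1559 for RNR2, the mitochondrial rRNA genes. That equality was not taken as the identity of a probe, and all probes are called here by their names. For the same lack of gene names, THP-1 markers, LPS response genes and the protein partners of these RNAs were not measured here.

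Signals below are the deposited intensities after background subtraction, averaged over the spots of a probe without an outlier flag. Each difference is LPS minus Con on the log2 scale after the 75th percentile of each array, 547 on Con and 600 on LPS, was set equal. This scaling lowers LPS by 0.13 relative to Con, so a probe with a slightly higher LPS signal can have a difference at or below 0. The error given with a difference is a spot error, made from the spot-to-spot SD within a probe, pooled over probes of like signal, and covers technical repeats alone. For this, and to describe probes of like signal, all probes were ranked by their mean scaled signal and divided into 10 equal signal groups, from group 1, the dimmest, to group 10. A probe was detected where most of its spots were well above background by the scanner software. Signals of different probes depend on labelling and hybridisation and were not compared as amounts of RNA.

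Of the 25 probes, 22 were detected on Con and 19 on LPS, and these 19, or 76.0%, were detected on both arrays, against 81.8% of all probes. Of all 75149 probes, 68945 were detected on Con and 61912 on LPS, so fewer were detected on LPS across the array too. By class, 13 of 17 rRNA probes, 4 of 5 vault RNA probes, the SRP RNA probe and 1 of 2 ribozyme probes were detected on both. At a threshold of 2-fold, 0 of the 25 probes were higher on LPS and 3 were lower, beside 0.723% of all probes that were higher and 15.3% that were lower. The 3 of 25, or 12.0%, lie near the share among all probes. All 3 were dim rRNA probes below background on LPS, so that each is a lower bound and not a measured fold. Among the 19 probes detected on both arrays, 0 differed by 2-fold. Of all probes, 61465 were detected on both arrays, and 504 of these were at least 2-fold higher and 4562 at least 2-fold lower.

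The rRNA probes fell into a very bright set and a dimmer remainder. In signal group 10 lay 7 of the 17, and their scaled differences ran from -0.16 to 0.42 with a median of -0.0022, beside 0.03 for all probes of that group. The probe rRNA_7_1559 had the 7th highest signal of all probes on each array. It gave 158155 on Con and 161556 on LPS, a difference of -0.10 ± 0.08 (spot error, 3 spots per array). The probe rRNA_0_5192 gave 67887 on Con and 74731 on LPS, a difference of 0.0053 ± 0.09. Both differences are small next to a 2-fold change, and that of rRNA_0_5192 lies within the spot error.

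The probe rRNA_2_1871 gave 46982 on Con and 51163 on LPS, a difference of -0.010 ± 0.08. The probe rRNA_32_478 gave 38813 on Con and 42503 on LPS, a difference of -0.0022 ± 0.08. The probe rRNA_38_373 gave 37945 on Con and 45134 on LPS, a difference of 0.12 ± 0.09. Of these, rRNA_2_1871 and rRNA_32_478 lay within the spot error and rRNA_38_373 slightly beyond it, and after scaling the spots of the arrays overlapped for all of them. The sign of the smallest differences depends on the scaling. Under the 50th percentile and under no scaling, rRNA_2_1871, rRNA_7_1559 and rRNA_32_478 were slightly higher on LPS, and with the E1A control probes as the scale, or with the normexp background correction, rRNA_0_5192 was slightly lower.

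The probe rRNA_9_954 gave 36780 on Con and 35980 on LPS, a difference of -0.16 ± 0.13 from 1 unflagged spot per array. Those spots lay at different positions on the arrays. With all 3 spots of each array its difference was -0.05, and with the normexp background correction it was -0.41. The flags bear on this set as a whole. Of the 19 spots of the 7 bright rRNA probes, 9 carried an outlier flag on Con and 9 on LPS, or 47.4% on each array, beside 7.80% and 9.47% of the spots of all probes in signal group 10. For rRNA_32_478 and rRNA_38_373 every spot was flagged on both arrays, and all of their spots were used. No spot of any of the 25 probes was saturated.

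The probe rRNA_27_581 stood apart from the other bright rRNA probes. It gave 7639 on Con and 11240 on LPS, a difference of 0.42 ± 0.11, or 1.34-fold higher on LPS. Its unflagged spots read 6811 and 8567 on Con and 11240 on LPS, and the flagged spots read 9261 on Con and 11259 and 12283 on LPS. The unflagged spots thus lay at different positions on the arrays. At the position of the unflagged LPS spot, the scaled values were 4.08 on Con, from the flagged spot, and 4.23 on LPS. With all 3 spots of each array the difference was 0.37. The SD of its 2 unflagged Con spots was 0.23, above the pooled 0.10 of signal group 10, so the spot error may be too small here. With or without the flagged spots, every LPS spot exceeded every Con spot. The middle 50% of probes in signal group 10 differed by -0.09 to 0.15, and this probe lay above that range. Its difference stayed between 0.34 and 0.56 under the 10 other ways of scaling, normalizing or averaging that were run.

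The other 10 rRNA probes had lower signals, and 6 of them were detected on both arrays. The probe rRNA_261_116 gave 951 on Con and 747 on LPS, a difference of -0.48 ± 0.10. Its spots read 891 and 1015 on Con and 669 and 834 on LPS, so that the arrays did not overlap. Its own spot SDs were 0.13 on Con and 0.22 on LPS, above the pooled 0.10 and 0.09 of its signal group. The spot error may thus be too small for this probe. The middle 50% of probes in its signal group differed by -0.10 to 0.16, and this probe lay below that range. Its difference was between -0.57 and -0.35 under the same 10 alternatives. The probe rRNA_317_113 gave 125 on Con and 134 on LPS, a difference of -0.03 ± 0.15, within the spot error and positive under 4 of the alternatives.

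The remaining rRNA probes detected on both arrays had signals under 50. The probe rRNA_41_155 gave 47.3 on Con and 43.3 on LPS, a difference of -0.26 ± 0.19. The probe rRNA_53_150 gave 32.7 on Con and 37.3 on LPS, a difference of 0.06 ± 0.28, and rRNA_33_478 gave 30.0 on Con and 31.2 on LPS, a difference of -0.08 ± 0.28. The last pair lay within the spot error. The probe rRNA_40_161 gave 31.2 on Con and 17.4 on LPS, a difference of -0.97 ± 0.28, which is 1.97-fold and just short of the threshold. Its spots read 30.9 and 31.6 on Con and 16.1 and 18.8 on LPS and did not overlap.

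Dim probes of all kinds were lower on LPS by their median, and that trend stands beside each of these values. The median difference of all probes was -0.27 in signal group 4, which holds rRNA_41_155, and -0.62 in signal group 3, which holds rRNA_53_150, rRNA_33_478 and rRNA_40_161. In signal group 3 the middle 50% ran from -1.24 to -0.18, so rRNA_40_161 lay inside it, while rRNA_33_478 and rRNA_53_150 lay above it. Under quantile normalization, which gives the arrays the same distribution of signals, rRNA_40_161 differed by 0.08, rRNA_33_478 by 0.82 and rRNA_53_150 by 0.85. The signs of rRNA_40_161 and rRNA_33_478 thus turned with the normalization. So did that of rRNA_41_155, which differed by 0.30 under quantile normalization and 0.16 under cyclic loess. The part of the trend in them was not tested.

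Detection on Con alone was found for 3 rRNA probes, beside 7480 of all 75149 probes, and these 3 are the calls named above. The probe rRNA_55_135 gave 23.8 on Con and 5.32 on LPS, with spots at 23.1 and 24.4 on Con and at 4.87 and 5.81 on LPS, and was at least 3.60-fold lower on LPS. The probe rRNA_15_921 gave 15.4 on Con and 2.16 on LPS and was at least 2.34-fold lower. The probe rRNA_36_458 gave 14.1 on Con and 4.26 on LPS and was at least 2.13-fold lower. These bounds set the Con signal against the lowest signal among detected probes of LPS, 7.23, after scaling. That floor comes from the dimmest detected probe, and a higher floor would give smaller bounds. On LPS vault_RNA_0_95 was not detected at 13.5. The 10th percentile of all probes was 16.5 on Con and 4.42 on LPS. The bound of rRNA_36_458 fell short of 2-fold with the 50th percentile, no scaling and the median over spots. With the median over spots that of rRNA_15_921 did too. Both spots of rRNA_15_921 on LPS read 2.16, close to the lowest signal of any probe there, 2.13.

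In the signal groups that hold these 3 probes, calls of lower signal were common. In signal group 1, with rRNA_15_921 and rRNA_36_458, 29.9% of all probes were called lower, and in signal group 2, with rRNA_55_135, 61.2% were. Under quantile normalization, cyclic loess and the normexp background correction 0 of the 3 bounds passed 2-fold. The measured value of rRNA_15_921, below background on LPS, still differed by -1.75 under quantile normalization and by -1.17 under cyclic loess, and that of the other members of the trio by less than 2-fold. The probe rRNA_30_500 was below background on both arrays, with 2.75 on Con and 2.36 on LPS, and no fold was computed for it. Over all 17 rRNA probes the median difference was -0.10, with 13 below 0 and 4 above 0. Over all 75149 probes the median was -0.13, with 48334 below 0 and 26815 above 0. The rRNA tally depends on the scaling, with 8 below and 9 above 0 under no scaling or the 50th percentile and medians of 0.03 and 0.02. Under quantile normalization 4 were below and 12 above 0.

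Of the vault RNA probes, 4 of 5 were detected on both arrays and all 4 had a negative difference under the main scaling. So had 48334 of all 75149 probes, detected or not. The brightest, vault_RNA_1_94, gave 235 on Con and 135 on LPS, a difference of -0.93 ± 0.13, or 1.91-fold lower. Its spots read 221 and 251 on Con and 135 and 135 on LPS, so that the arrays were well apart. The middle 50% of probes in its signal group differed by -0.22 to 0.15 with a median of -0.03, and vault_RNA_1_94 lay below that range. Its difference was between -1.02 and -0.71 under the 10 alternatives, quantile normalization and cyclic loess included, where it was -0.85 and -0.91. It passed 2-fold under the E1A scaling and under none of the others.

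The probe vault_RNA_5_82 gave 90.5 on Con and 71.3 on LPS, a difference of -0.48 ± 0.15. Its spots read 87.6 and 93.5 on Con and 69.4 and 73.3 on LPS and did not overlap, and its difference was between -0.56 and -0.21 under the alternatives. The middle 50% of its signal group ran from -0.37 to 0.10, and the probe lay below it. The probe vault_RNA_4_82 gave 34.7 on Con and 27.9 on LPS, a difference of -0.45 ± 0.28, and vault_RNA_2_92 gave 31.3 on Con and 30.3 on LPS, a difference of -0.18 ± 0.28. Both of these lay in signal group 3, above its median of -0.62 and inside its middle 50%. Under quantile normalization they were higher on LPS, by 0.39 and 0.70, and under cyclic loess by 0.23 and 0.51. Their direction is thus not settled. That of vault_RNA_1_94 and vault_RNA_5_82 was the same in every setting run, but all settings reuse the same arrays and do not replicate it.

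The probe vault_RNA_0_95 gave 11.5 on Con and 13.5 on LPS, with 1 of its 2 spots well above background on each array. It was therefore not counted as detected on either, and no fold was computed. The median difference of the 4 detected vault RNA probes was -0.46, and that of all 5 was -0.45. The probes vault_RNA_4_82 and vault_RNA_5_82 share the last number in their names, as do rRNA_32_478 and rRNA_33_478, of which the former gave 38813 and the latter 30.0 on Con. Whether any of these probes share a target is not stated in the files.

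The single SRP RNA probe, SRpRNA_9_308, gave 77.7 on Con and 66.9 on LPS, a difference of -0.35 ± 0.15, or 1.27-fold lower. Its 3 spots lay between 72.5 and 80.8 on Con and between 66.1 and 67.6 on LPS, and did not overlap. All probes of its signal group had a median of -0.27, so this probe lay close to the middle of probes of like signal. Its difference was negative under every alternative that could give it a value, between -0.44 and -0.04.

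Of the ribozyme probes, ribozyme_2_78 gave 470 on Con and 519 on LPS, with a difference of 0.0095 ± 0.10. Its spots were at 457 and 484 on Con and at 514 and 525 on LPS. These ranges are apart before scaling and overlap after it. The difference was within the spot error, and its sign turned under the E1A scaling, to -0.08, and under cyclic loess, to -0.02. The probe ribozyme_0_192 read 9.48 on Con and 2.22 on LPS and was below background on both arrays, so no fold was computed.

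Counted by spots, every LPS spot lay below every Con spot after scaling for 14 of the 25 probes and above for 1, beside 46.7% and 20.3% of all probes. The 14 were 9 rRNA probes, 3 vault RNA probes, the SRP RNA probe and ribozyme_0_192, and the 1 was rRNA_27_581. Among the 14, rRNA_30_500 and ribozyme_0_192 were below background on both arrays, and rRNA_15_921, rRNA_36_458 and rRNA_55_135 were so on LPS. The count for rRNA_9_954 rests on 1 unflagged spot per array, and that for rRNA_27_581 on 1 unflagged spot on LPS. With 2 or 3 spots per array such separation is frequent, and the shares over all probes show how frequent it was here.

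The rRNA probes were set beside other classes of noncoding RNA on the array. The median difference over all probes of a class was -0.10 for rRNA, -0.07 for the 306 snoRNA and scaRNA probes, which guide chemical modification of other RNAs, -0.12 for the 99 tRNA probes and -0.32 for the 141 snRNA probes of the spliceosome and related particles. The share called lower was 17.6% of rRNA probes, 0% of vault RNA probes, 11.8% of snoRNA and scaRNA probes, 9.09% of tRNA probes and 22.0% of snRNA probes. Over probes detected on both arrays the medians were -0.03 for rRNA, -0.05 for snoRNA and scaRNA, -0.05 for tRNA and -0.10 for snRNA. The vault RNA median of -0.46 over 4 detected probes was lower than each of these. It stayed the lowest under the other scalings, at -0.34 with the 50th percentile, -0.33 without scaling and -0.55 with the E1A control probes. That order depends on the normalization, however. Under quantile normalization the vault RNA median was 0.09, above those of the other classes. Under cyclic loess it was -0.04, beside 0.01 for rRNA, -0.04 for snoRNA and scaRNA, -0.09 for tRNA and -0.05 for snRNA. With 4 vault RNA probes on 1 array per condition, 2 of them in the dim range where most probes were lower, the difference from the other classes was not tested.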

How the data were processed

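Microarray data of control and LPS-treated THP-1 cells were used, 1 array each. The authors deposited scanner files made with Agilent Feature Extraction 11.5.1.1, where each spot has an intensity that this software had background-subtracted and detrended across the array, not scaled between arrays, and flags of 0 or 1. A further deposited table of processed intensity holds 22 of the 25 probes. All its 65460 matched values per array equalled, within 0.001 on the log2 scale, the average made here from the spots of each probe.

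From the scanner files, control spots were set aside, log2 intensities of unflagged spots were averaged per probe (all spots where every spot was flagged), and each array was lowered by its 75th percentile across the 75149 probes. Detection needed a majority of spots well above background. A probe was called at 2-fold, and where 1 array was below background the fold was a bound against the lowest detected signal or the probe's own, whichever was higher. The spot error is the square root of the sum over arrays of the pooled squared spot SD in the probe's signal group divided by its number of spots. Precision is limited by the number of arrays.

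Every vault RNA, SRP RNA and ribozyme probe and each rRNA probe detected on at least 1 array is named by rule. The probes, lists and alternatives were chosen with earlier results of these data known. Alternatives were other scalings, quantile normalization, cyclic loess, normexp with an offset of 50 on the median spot and background intensities, the processed table, all spots, the median over spots, other filters and other thresholds. The lists of partner proteins, LPS response genes and cell markers were not run, since no probe is paired with a gene here. Python 3.11.15, numpy 2.4.6, pandas 2.3.3, R 4.3.3 and limma 3.58.1 were used.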

Additional observations from a re-analysis of the deposited data

How the results depend on the processing

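Under every alternative 0 of the 25 probes were higher by the threshold in use. Of all probes, 0.285% (at 3-fold) to 3.76% (under quantile normalization) were higher, so the 0 lies near the share among all probes. The number lower was 3 in the main setting, beside 15.3% of all probes. It was 5 with the E1A control probes as the scale (16.4% of all probes) and 5 at 1.5-fold (22.0%). It was 4 without a filter on dim probes (19.7%) and 4 with the positive and significant flag (19.6%). With the 50th percentile and with no scaling it was 2 (13.7% and 13.5%), without rRNA_36_458. With the median over spots and at 3-fold it was 1 (12.9% and 8.20%). It was 0 under quantile normalization (4.80%), cyclic loess (5.54%), normexp (1.75%) and calls for probes detected on both arrays (6.07%). Among all probes the calls were then 12336 lower with E1A, 3610 with quantile normalization, 4165 with cyclic loess and 1314 with normexp, against 11473, and the higher calls were 2827 with quantile normalization and 1648 with cyclic loess, against 543. Over the probes detected on at least 1 array, the rRNA median was -0.09 and became 0.078 under quantile normalization. The vault RNA median of -0.46 became 0.091 under quantile normalization, -0.039 under cyclic loess and -0.23 under normexp. The SRP RNA probe moved from -0.35 to -0.039 under quantile normalization and -0.15 under cyclic loess. The detected ribozyme probe moved from 0.0095 to 0.13 with the 50th percentile and 0.14 without scaling. Of the called probes, rRNA_36_458 turned to 0.23 under quantile normalization. By construction, cyclic loess flattens a dependence on signal and quantile normalization gives the arrays the same distribution of signals. The cause of the other moves was not tested. The median over all probes was -0.13 in the report, and it was -0.01 for the 50th percentile and -0.22 for E1A. Under the less strict detection flag (positive and significant) 22 members passed on both arrays, against 19. The processed table gave no value for SRpRNA_9_308, rRNA_33_478 and rRNA_41_155. The alternatives for partner proteins were not run. No paired analysis was possible because each group holds a single array.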
